A study of Homo sapiens with 6 samples.

Results

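The 10 genes described here are GAS5, SNHG1, SNHG3, SNHG5, SNHG6, SNHG7, SNHG8, SNHG12, SNHG15 and ZFAS1, which are noncoding genes whose introns carry small nucleolar RNAs (snoRNAs). They were chosen with earlier results of these data known. Matching was by gene symbol, a step that uses no measured value, and all 10 were found among the 24462 gene symbols of the count files. Of the 10, 9 were among the 12650 genes that passed the filter on low counts, and SNHG3 was left out of the tests by that filter.

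A snoRNA host gene is transcribed and spliced, the snoRNA is trimmed out of the discarded intron, and the joined exons leave the nucleus as an RNA that in these genes encodes no known long protein. Box C/D snoRNAs guide the methylation of riboses in ribosomal RNA and box H/ACA snoRNAs guide the conversion of uridine to pseudouridine. The exon RNAs of many hosts begin with a terminal oligopyrimidine (TOP) tract, a run of C and T that they share with the ribosomal protein genes and that couples translation to growth signals, and several of them are degraded by nonsense-mediated decay.

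RNA came from MDA-MB 231, a human triple-negative breast cancer cell line of the claudin-low subtype, and was made into QuantSeq libraries, in which each read marks the 3′ end of a polyadenylated RNA. The 3 groups held 2 libraries each, all taken 48 h after transfection: cells given a negative control (NC) mimic, cells given a mimic of the microRNA miR-200a at 100 nM, and cells labelled as given miR-200a together with 30 ng of a plasmid for the transcription factor ELK3. The treatment labels give no doses, which are those of the study's methods. The plasmid is named pcDNA3.1 Hygro(+)-ELK3 in the treatment label and pcDNA3.1-Flag-ELK3 in the methods. No group received an empty plasmid according to the labels, so the plasmid itself and ELK3 cannot be told apart. The third group is called the ELK3-labelled libraries below. The labels do not say that the 2 libraries of a group came from separate cultures, and the study's general statement on independent experiments does not name these libraries, so p-values measure only the spread between these libraries, which may be technical.

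The libraries held 3055915 to 4868004 counts, of which the 10 host genes took 0.123% to 0.160%. The floor of detection was taken as 3 counts, which covers counting error alone and equalled 0.616 to 0.982 CPM (counts scaled to a fixed library total). The 7 marker genes fixed for MDA-MB 231, VIM and CD44 among them, were all detected, together at 4749 to 5057 CPM in the NC mimic and miR-200a libraries and 3440 to 4307 CPM in the ELK3-labelled ones, a gap whose part in the results was not tested. In both comparisons of the latter, 6 of the 7 fold changes were below 0 and 1 above. CD44 alone was called, as lower, at −0.61 on the log2 scale against miR-200a and −0.58 against the NC mimic, but not in every alternative analysis. Of the 7 luminal breast markers, 4 stayed at or under 3 counts in each library, among them ESR1, the oestrogen receptor, at 0, while KRT19 (at least 143 counts), XBP1 (142 to 220) and GATA3 (14 to 42) were detected, and the list summed to 103 to 135 CPM. Of the 6 markers of endothelial cells and fibroblasts, 4 stayed at or under 3 counts in each library, PECAM1 had 3 to 13 counts and COL1A1 had 81 to 198. Of the 5 leukocyte markers, 3 stayed at or under 3 counts, PTPRC had 0 to 10 and CD3E 0 to 5. That list summed to 0.668 to 1.45 CPM in the NC mimic and miR-200a libraries and to 1.18 and 4.03 CPM in the ELK3-labelled ones. For ELK3 itself the NC mimic libraries held 618 and 509 counts, those with miR-200a 493 and 505, and the ELK3-labelled ones 406 and 337. These were 138 and 166, then 102 and 103, then 96.2 and 79.2 CPM. The log2 fold change of the last group was −0.23 (SE 0.15, adjusted p = 0.354) against miR-200a and −0.79 (SE 0.15, adjusted p = 0.0117) against the NC mimic, a call that was lost without NC mimic replicate 1 (0.0691) or 2 (0.159). With miR-200a alone against the NC mimic it was −0.56 (SE 0.15, adjusted p = 0.232 in edgeR's quasi-likelihood test). The counts of the ELK3-labelled libraries do not show added ELK3. The plasmid carries ELK3 without its own 3′ end, and a 3′ tag of a plasmid transcript can lie in vector sequence, so the counts do not check the plasmid either, and the group is known here by its label only. The study reports, from qRT-PCR and western blot, that this co-transfection brought ELK3 RNA and protein back to the control level.

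The first bases of the host genes are shown because the TOP tract is the feature by which these genes are grouped with the ribosomal proteins. Each line gives 30 bases of the RefSeq annotation on GRCh38.p14, 5′ to 3′ on the gene's own strand, made of 10 bases before the annotated start and 20 from it, and capitals mark the longest run of at least 5 bases that begins with C and holds only C and T, the first one where runs tie, as they do in SNHG5. The promoter table held 8 of the 10 genes, all but SNHG6 and SNHG15.
GAS5, chr1:173869026-173869055, minus strand: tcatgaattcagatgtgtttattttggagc
SNHG1, chr11:62855866-62855895, minus strand: gagattcgttctcatttttctactgctcgt
SNHG3, chr1:28505933-28505962, plus strand: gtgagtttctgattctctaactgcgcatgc
SNHG5, chr6:85678714-85678743, minus strand: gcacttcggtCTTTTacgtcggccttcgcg
SNHG7, chr9:136728165-136728194, minus strand: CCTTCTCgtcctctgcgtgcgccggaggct
SNHG8, chr4:118278752-118278781, plus strand: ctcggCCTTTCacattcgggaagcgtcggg
SNHG12, chr1:28581854-28581883, minus strand: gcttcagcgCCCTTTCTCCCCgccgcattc
ZFAS1, chr20:49278632-49278661, plus strand: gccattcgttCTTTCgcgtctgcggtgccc

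Such a run was present in 5 of these 8 windows. The marked run of SNHG5 and ZFAS1 opened at the annotated first base, and SNHG12 had the longest, with 12 bases. Over windows of the same length, a run was found in 38.4% of all 35116 promoters of the table, in 84.6% of 78 cytosolic ribosomal protein genes and in 60% of 20 other noncoding snoRNA hosts. A match describes the letters and not a start site in use, and the windows without a run say nothing of starts elsewhere in the gene.

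Counts were high enough for a test in 9 hosts: GAS5, SNHG1, SNHG5, SNHG6, SNHG7, SNHG8 and ZFAS1 gave 430 to 1201 counts in each library, SNHG12 gave 78 to 168, SNHG15 gave 68 to 129, and SNHG3 was near the floor with 1 to 4. Values are given below as counts in each library, always in the order NC mimic, miR-200a and miR-200a plus ELK3, replicate 1 before replicate 2, and as CPM after scaling by trimmed means (TMM). Tag counts are not divided by transcript length and are compared here between libraries and not between genes. In a bulk library a lower level in each cell and fewer cells that express the gene cannot be told apart.

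**Figure D1:**
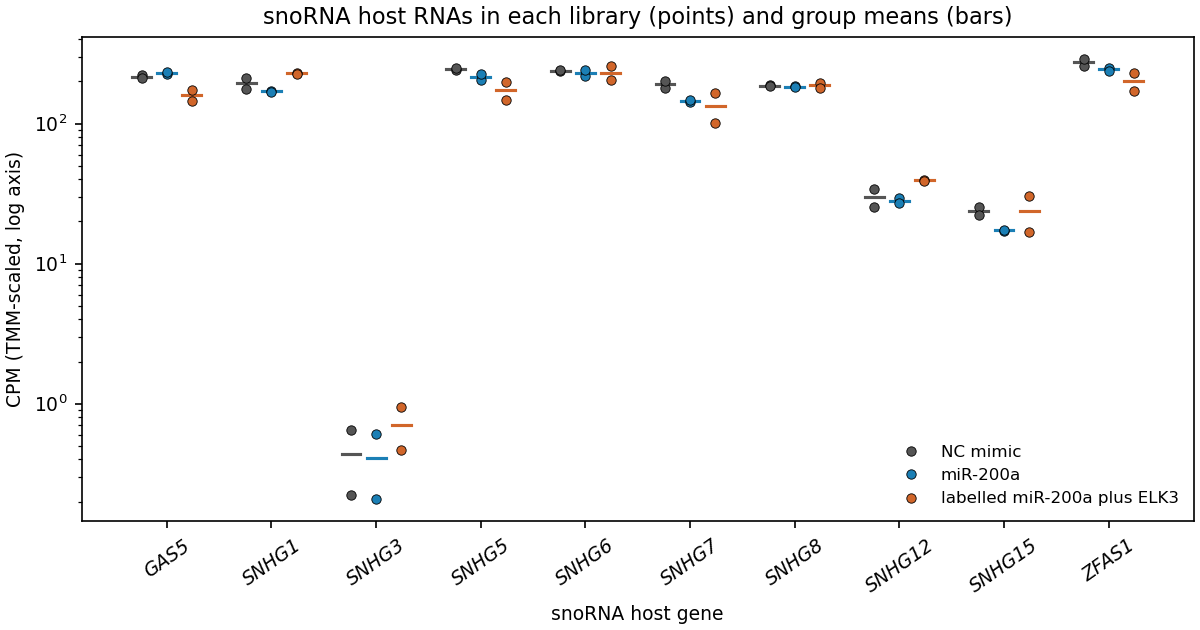
TMM-scaled CPM (log axis) of each of the 10 host genes in the 6 libraries; points are libraries, bars are means of the 2 libraries of a group and colours are groups. GAS5 lies at 144 and 174 CPM in the ELK3-labelled libraries and at 210 to 233 CPM in the other 4, SNHG8 lies between 180 and 195 CPM in all 6, and SNHG3 stays below 1 CPM.

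With miR-200a alone, no host gene passed the test against the NC mimic. This comparison asks which RNAs differ when only the microRNA is added. The 9 tested hosts had 0 calls at an adjusted p under 0.05 in edgeR's quasi-likelihood test, beside 0.269% of all tested genes (0.213% higher and 0.0553% lower), and 0 had an unadjusted p under 0.05, beside 9.24%. DESeq2 and limma also called 0 of the 9. SNHG7 was called as lower without ELK3-labelled replicate 1 or 2, fits in which far more of all tested genes were called. Their log2 fold changes ran from −0.46 for SNHG15 to 0.08 for GAS5 with a median of −0.16, where the median of all tested genes was −0.02. The 2 groups did not overlap in 7 of the 9 hosts, 6 of them lower with miR-200a and 1 higher. Among all tested genes 48.9% did not overlap, 26.1% in the lower and 22.9% in the higher direction.

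The ELK3-labelled libraries gave the hosts fold changes of both signs. Compared with miR-200a alone, GAS5 was lower and was the only host past the test. SNHG1, SNHG12 and SNHG15 had positive and SNHG5, SNHG7 and ZFAS1 negative fold changes that did not pass, and SNHG6 and SNHG8 lay near 0. Of the 9 hosts 1 was called, in the lower direction, beside 12.9% of all tested genes (7.03% higher and 5.91% lower), and 3 of 9 had an unadjusted p under 0.05, beside 30.6%. The log2 fold changes ran from −0.52 to 0.48 with a median of 0.01, where all tested genes had a median of 0.02. The groups did not overlap in 5 of 9 hosts, 2 higher and 3 lower, and in 58.2% of all tested genes, 30.2% higher and 28% lower. No host was called when any 1 NC mimic or miR-200a library was left out, and fewer of all tested genes were called in those fits. Without ELK3-labelled replicate 1 or 2 more hosts were called, SNHG1 as higher in both fits. More of all tested genes were called there too, so the added calls do not set the hosts apart.

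Against the NC mimic the same libraries gave 0 calls among the 9 hosts, beside 12.9% of all tested genes (6.92% higher and 5.95% lower), and 4 unadjusted p-values under 0.05, beside 30.6%. This number of calls depended on the settings: DESeq2 gave 0, limma 3 and edgeR without the count filter 4, all of them lower. Over all genes these fits called 1203, 1543 and 2525, in place of 1629. Without ELK3-labelled replicate 1 or 2 more hosts were called, again all lower, with GAS5, SNHG5 and ZFAS1 in both fits. More of all tested genes were called there too. The fold changes ran from −0.52 to 0.38 with a median of −0.04. The groups did not overlap in 6 of the 9 hosts, 2 higher and 4 lower, and in 56.7% of all tested genes, 29% higher and 27.6% lower. This comparison shares its libraries with the other 2, so the 3 sets of values are not independent.

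**Figure D2:**
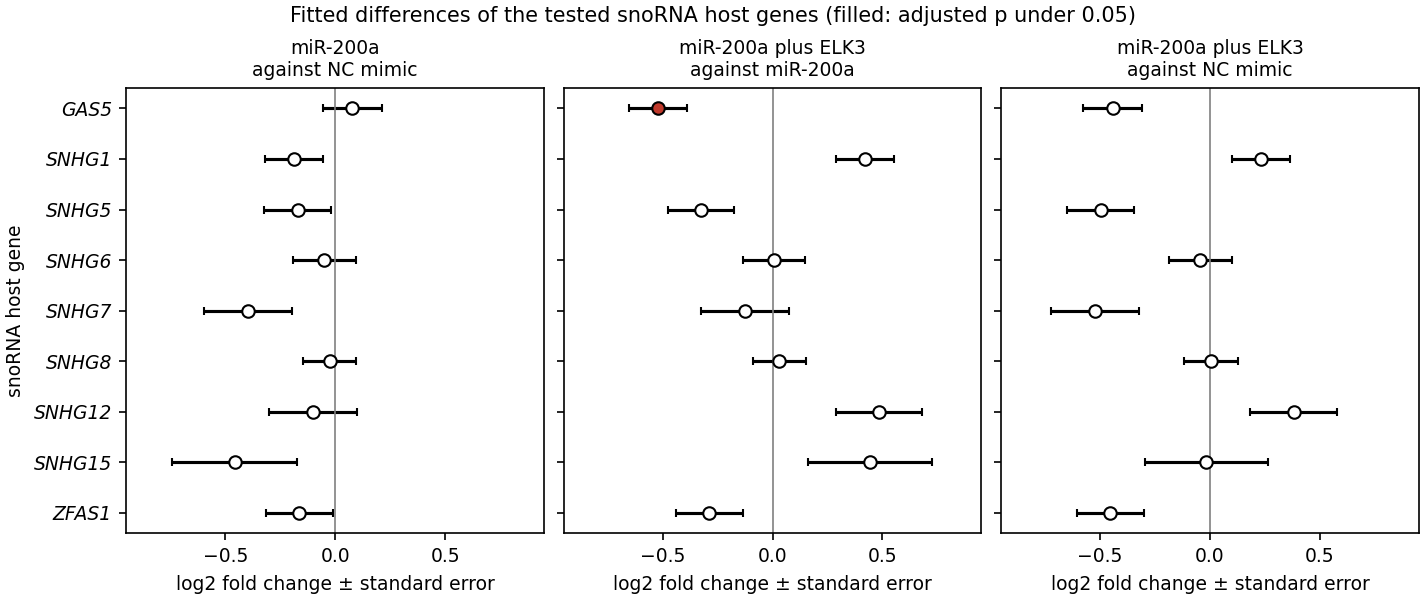
Fitted log2 fold change (horizontal axis) of the 9 tested host genes (vertical axis) in the 3 comparisons, with bars of 1 standard error; a filled point has an adjusted p under 0.05. Only GAS5 in the ELK3-labelled libraries against miR-200a is filled, at −0.52.

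GAS5, growth arrest-specific 5, carries 10 box C/D snoRNA genes that are listed in the count files and is known for accumulating in growth-arrested cells. The NC mimic libraries gave 1002 and 643 counts, the miR-200a libraries 1081 and 1143, and the ELK3-labelled libraries 609 and 742. Its level was 216 ± 9.43 CPM, 229 ± 5.98 CPM and 159 ± 21.3 CPM in that order (mean ± SD, n = 2 each). Both ELK3-labelled libraries were below the other 4, while the NC mimic and miR-200a libraries lay close together. The level was 1.44-fold lower than with miR-200a, a log2 fold change of −0.52 (SE 0.13, adjusted p = 0.0317, edgeR quasi-likelihood test with Benjamini-Hochberg adjustment). Against the NC mimic the log2 fold change was −0.44 (SE 0.13, adjusted p = 0.0554), and between miR-200a and the NC mimic it was 0.08 (SE 0.13, adjusted p = 0.925).

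The direction of GAS5 against miR-200a was lower in all 15 alternative analyses, with log2 fold changes of −0.70 to −0.40, but it was not called in all of them. With a replicate block, for example, the adjusted p of edgeR's quasi-likelihood test was 0.0551. The adjusted p ran from 1.59e-06 to 0.260 and passed the threshold in 9 of the 15. Among the 6 in which it did not were those without NC mimic replicate 1 (0.0877) or 2 (0.0849), without miR-200a replicate 1 (0.209) or 2 (0.260), and in a model of these 2 groups alone (0.0818). It passed without ELK3-labelled replicate 1 (0.00116) or 2 (1.59e-06).

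SNHG1 and SNHG12 had their highest group means in the ELK3-labelled libraries. SNHG1, which carries SNORD22 and SNORD25 to SNORD31, had 955 and 537, 828 and 829, and 971 and 965 counts in the 3 groups. These were 213 and 175, then 172 and 169, then 230 and 227 CPM, so the third group lay above all 4 other libraries. Its log2 fold change against miR-200a was 0.42 (SE 0.13, adjusted p = 0.0608), short of the threshold, and against the NC mimic 0.23 (SE 0.13, adjusted p = 0.261). Leaving out 1 NC mimic library moved the latter to 0.38 (without replicate 1) or 0.10 (without replicate 2). The value against miR-200a passed the test without ELK3-labelled replicate 1 (0.40, adjusted p = 0.00213) or 2 (0.40, adjusted p = 0.00352).

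SNHG12, host of box H/ACA snoRNAs such as SNORA44 and SNORA61, had 154 and 78, 141 and 132, and 168 and 165 counts in the 3 groups. In CPM these were 34.3 and 25.5, 29.3 and 26.9, and 39.8 and 38.8, with the third group again above the rest. The log2 fold change was 0.48 (SE 0.20, adjusted p = 0.126) against miR-200a and 0.38 (SE 0.20, adjusted p = 0.220) against the NC mimic. The latter became 0.63 without NC mimic replicate 1 and 0.20 without replicate 2. The 2 NC mimic libraries differed from each other by more than the miR-200a libraries differed from either.

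SNHG5 and ZFAS1 had the same order of group means, highest with the NC mimic and lowest in the ELK3-labelled libraries. SNHG7 shared this order. So did C6orf48 and EPB41L4A-AS1, noncoding snoRNA hosts outside the 10. SNHG5, host of SNORD50A and SNORD50B, had 1076 and 758 counts, then 993 and 1110, then 834 and 628, or 240 and 247, 206 and 226, and 198 and 148 CPM. Its log2 fold change in the third group was −0.33 (SE 0.15, adjusted p = 0.176) against miR-200a and −0.50 (SE 0.15, adjusted p = 0.0574) against the NC mimic. Without ELK3-labelled replicate 1 these became −0.56 (adjusted p = 3.02e-05) and −0.72 (7.5e-07), and without replicate 2 −0.16 (0.237) and −0.31 (0.0161). No library of 1 group reached into the range of the next, but the spread within the third group was the widest.

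ZFAS1, host of the SNORD12 family and named for lying antisense to ZNFX1, had 1154 and 889 counts, then 1201 and 1170, then 966 and 726. These were 257 and 290, 249 and 238, and 229 and 171 CPM. The log2 fold change in the third group was −0.29 (SE 0.15, adjusted p = 0.232) against miR-200a and −0.45 (SE 0.15, adjusted p = 0.0783) against the NC mimic, and neither passed the test. Without ELK3-labelled replicate 1 these became −0.53 (adjusted p = 5.95e-05) and −0.67 (1.74e-06), and without replicate 2 −0.12 (0.376) and −0.26 (0.0394).

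SNHG7, host of SNORA17A and SNORA17B, had 806 and 622, 687 and 725, and 696 and 430 counts in the 3 groups. In CPM these were 179 and 203, 143 and 148, and 165 and 101. The miR-200a libraries were both below the NC mimic, whereas the third group spanned the miR-200a values on both sides. The log2 fold change with miR-200a against the NC mimic was −0.40 (SE 0.20, adjusted p = 0.606), and it passed the test only in fits that left out 1 or both of the third group's libraries, with an adjusted p of 0.00373 when both were left out. The third group differed from the NC mimic by −0.52 on the log2 scale (SE 0.20, adjusted p = 0.109), which became −0.91 (9.62e-08) without its replicate 1 and −0.22 (0.135) without its replicate 2. Against miR-200a its value was −0.13 (SE 0.20, adjusted p = 0.703), and became −0.53 (0.000334) and 0.15 (0.325) in the same 2 fits.

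SNHG6 and SNHG8 showed the smallest differences. SNHG8, host of SNORA24, gave 190 and 184, 184 and 184, and 195 and 180 CPM in the 3 groups, from 851 and 565, 886 and 901, and 823 and 767 counts. Its log2 fold changes in the 3 comparisons lay between −0.02 and 0.03 (SE 0.12 each). SNHG6, host of SNORD87, gave 236 and 240, 218 and 241, and 258 and 203 CPM from 1060 and 734, 1051 and 1185, and 1090 and 865 counts, with log2 fold changes between −0.05 and 0.01 (SE 0.14 each). With standard errors of this size, small and moderate differences in either gene could be missed. SNHG1, at 0.42 (SE 0.13) in the ELK3-labelled libraries against miR-200a, did not pass the test. The sign of both values in that comparison turned for SNHG6 and SNHG8 with upper-quartile scaling, to −0.064 for SNHG6 and −0.039 for SNHG8.

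SNHG15, host of SNORA9, was measured with fewer counts, 114 and 68, 83 and 86, and 129 and 71 in the 3 groups. These were 25.4 and 22.2, 17.2 and 17.5, and 30.6 and 16.7 CPM. Both miR-200a libraries lay below the NC mimic, at a log2 fold change of −0.46 (SE 0.28, adjusted p = 0.703), but the third group's libraries lay at the 2 ends of the range. Its value in that group against miR-200a was 0.44 (SE 0.28, adjusted p = 0.321), and became −0.07 without replicate 1 of that group and 0.78, past the test, without replicate 2.

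SNHG15 matched the seed of the transfected microRNA in most of its annotated transcripts. The mature sequence of miR-200a-3p is shown with its seed, bases 2 to 8, in capitals, and below it 21 bases of a GENCODE 29 transcript of SNHG15 with the complementary site CAGTGTT in capitals, at bases 2710 to 2716 of 3116.
hsa-miR-200a-3p: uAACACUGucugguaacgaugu
SNHG15 site: catccgtCAGTGTTtctacag
The site occurred in 9 of the 10 annotated SNHG15 transcripts, in 1 of 3 SNHG3 transcripts and in no annotated transcript of the other 8 hosts. At least 1 transcript with the site was found for 42.0% of the 11921 tested genes that could be matched, so its presence is common. A match is not evidence of binding, and the SNHG15 level did not pass the test.

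SNHG3, host of SNORA73A and SNORA73B, had 1 and 2, 1 and 3, and 4 and 2 counts in the 3 groups. Only 1 of these 6 values, the 4 of ELK3-labelled replicate 1, was over the floor of 3 counts, so no difference could be detected at this depth. SNHG3 overlaps RCC1 on the same strand in the annotation, and RCC1 had 130 to 264 counts. How the authors' counting treated overlapping genes is not given in the sources used here.

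Ratios of 2 counts in the same library do not depend on the scaling between libraries. Pairs with SNHG1 were chosen after the values had been seen and are a description. GAS5 over SNHG1 was 1.05 and 1.20, 1.31 and 1.38, and 0.627 and 0.769 in the 3 groups. SNHG5 over SNHG1 was 1.13 and 1.41, 1.20 and 1.34, and 0.859 and 0.651, and ZFAS1 over SNHG1 was 1.21 and 1.66, 1.45 and 1.41, and 0.995 and 0.752. All 3 ratios were below 1 in both libraries of the third group and above 1 in the other 4. They share the SNHG1 count.

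The 2 ELK3-labelled libraries differed most from each other. The gap between the 2 replicates had a median over the 9 tested hosts of 0.34 on the log2 scale in that group, with the largest gap, 0.87, for SNHG15. The median gap of the NC mimic libraries was 0.17 and that of the miR-200a libraries 0.05. Over all tested genes the corresponding medians were 0.32, 0.18 and 0.15, with the third group again the widest.

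Of the tested hosts, 5 overlap a gene on the other strand, and whether the counting used the strand is not stated, so reads of the partners cannot be told apart with certainty. GAS5-AS1, the antisense transcript of GAS5, had 630 and 384, 717 and 771, and 359 and 398 counts in the 3 groups. It was lower in the ELK3-labelled libraries than with miR-200a by a log2 fold change of −0.78 (SE 0.14, adjusted p = 0.00803) and than with the NC mimic by −0.57 (SE 0.14, adjusted p = 0.0243). The first call was lost without miR-200a replicate 1 (0.117) or 2 (0.138) and the second without NC mimic replicate 1 (0.207) or 2 (0.137). The second was also lost without miR-200a replicate 1 (0.0834) or 2 (0.0842).

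The ratio of GAS5-AS1 to GAS5 stayed between 0.536 and 0.675 over the 6 libraries. It was 0.629 and 0.597, 0.663 and 0.675, and 0.589 and 0.536 in the 3 groups, lowest in the ELK3-labelled libraries. Similarly narrow were MCMDC2 over SNHG6, at 0.376 to 0.487, and FAM69B over SNHG7, at 0.725 to 0.940. The ratios of the other 2 pairs varied more. TRNAU1AP over SNHG12 ran from 0.424 to 0.987, and ZNFX1 over ZFAS1 was 0.561 and 0.461, 0.394 and 0.426, and 0.582 and 1.10.

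ZNFX1, a helicase-like zinc finger gene, had a fold change of the other sign than ZFAS1 in the ELK3-labelled libraries. It had 562 and 796 counts there and 473 and 498 in the miR-200a libraries, a log2 fold change of 0.68 (SE 0.17, adjusted p = 0.0271), beside −0.29 for ZFAS1. Its value became 0.89 without ELK3-labelled replicate 1 and 0.38 without replicate 2. The call on ZNFX1 was lost without miR-200a replicate 1 (0.220) or 2 (0.210) and without NC mimic replicate 1 (0.0775) or 2 (0.0761).

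**Figure D3:**
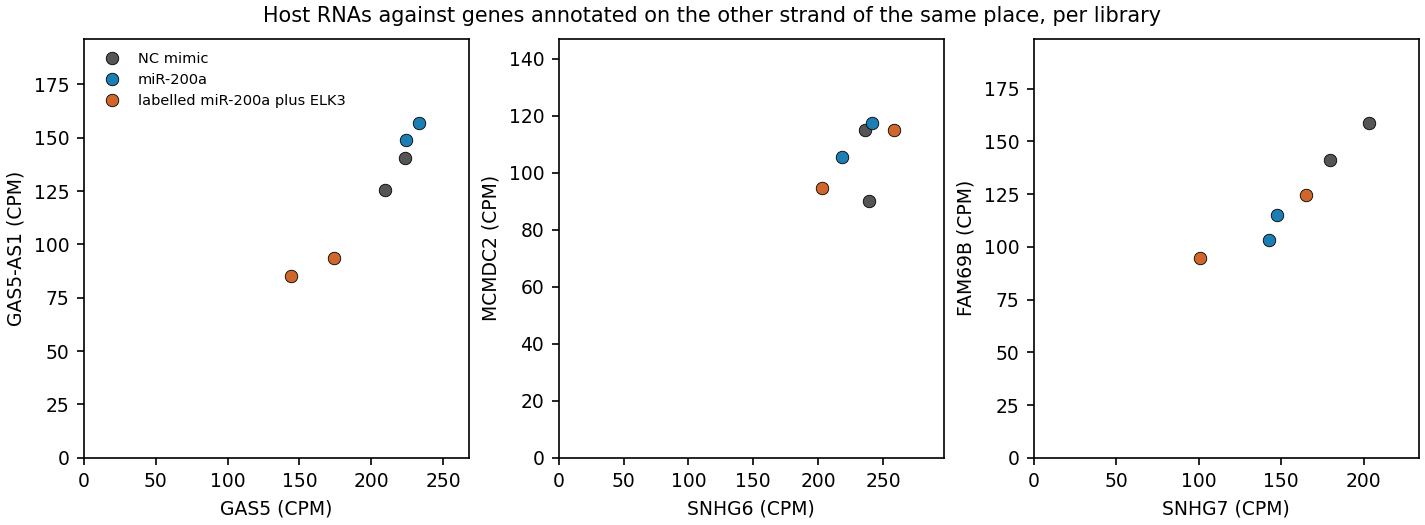
CPM of GAS5, SNHG6 and SNHG7 (horizontal axes) against that of the gene annotated on the other strand of the same place (vertical axes); each point is 1 of the 6 libraries and colours are groups. GAS5-AS1 lies at 0.536 to 0.675 of the GAS5 count in each library, and the 2 ELK3-labelled libraries are the lowest for both genes.

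Inside the 10 hosts the RefSeq annotation places 36 snoRNA genes, of which 31 are listed in the count files. The libraries select polyadenylated ends, and mature snoRNAs have none, so these counts are low and do not measure snoRNA levels. Of these, 6 passed the count filter, and 0 of the 6 passed edgeR's test, DESeq2 or limma in any of the 3 comparisons. Unadjusted p-values under 0.05 in edgeR's test numbered 2 for miR-200a against the NC mimic, beside 9.24% of all tested genes. They numbered 2 for the ELK3-labelled libraries against miR-200a and 0 for the same against the NC mimic, beside 30.6% in each. SNORD50A of SNHG5, with the highest counts, had 72 and 48, 114 and 111, and 67 and 65 in the 3 groups. SNORD26 of SNHG1 had 15 and 17, 51 and 48, and 10 and 25. Both were highest in the 2 miR-200a libraries, where their hosts were not: the log2 fold change with miR-200a against the NC mimic was 0.54 (SE 0.22, adjusted p = 0.484) for SNORD50A and 1.23 (SE 0.43, adjusted p = 0.401) for SNORD26, and −0.17 and −0.19 for SNHG5 and SNHG1. SNORD26 passed this test in a model of the 2 groups alone (adjusted p = 0.0219) and without ELK3-labelled replicate 1 (0.0209) or 2 (0.0232). In the ELK3-labelled libraries against miR-200a its value was −1.30 (SE 0.42, adjusted p = 0.0699), which passed without the count filter (0.0073) and without ELK3-labelled replicate 2 (−2.12, adjusted p = 0.00197).

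The other genes of the pathway give the setting for these values. Of 25 other noncoding snoRNA hosts, 18 are in the files and 12 were tested. With miR-200a against the NC mimic 0 passed the test (median −0.12). In the ELK3-labelled libraries against miR-200a 2 rose and 0 fell (median 0.31), beside 7.03% and 5.91% of all tested genes, the background for the lists that follow in this comparison; against the NC mimic it was 6.92% and 5.95%. DANCR, known for a role in keeping progenitor cells undifferentiated, went from 104 and 104 to 208 and 234 counts (log2 fold change 1.28, SE 0.18, adjusted p = 0.00348), and SNHG16 from 2643 and 2438 to 2653 and 3961 (0.58, SE 0.17, adjusted p = 0.0481). The SNHG16 value was 0.23 without ELK3-labelled replicate 2 and 0.82 without replicate 1. Against the NC mimic 2 rose, SNHG9 (1.34, SE 0.30, adjusted p = 0.0192) and DANCR (1.30, SE 0.18, adjusted p = 0.00282), and 1 fell, C6orf48 (−0.51, SE 0.15, adjusted p = 0.0492, and −0.33 without ELK3-labelled replicate 2), with a median of 0.11.

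Protein-coding genes that carry snoRNAs, ribosomal proteins aside, and the proteins that assemble on snoRNAs were also followed. Of 23 tested protein-coding hosts, 0 passed with miR-200a (median −0.15), 8 rose and 0 fell in the ELK3-labelled libraries against miR-200a (median 0.29), and 6 rose and 1 fell against the NC mimic (median 0.16). Of 18 snoRNP proteins and assembly factors, 0 passed with miR-200a (median −0.11), and 6 rose and 0 fell in each of the other comparisons (median 0.42 in both). NOP56, a core protein of box C/D particles and itself a host, had 646 and 453, 603 and 639, and 1032 and 1402 counts, a log2 fold change of 1.17 (SE 0.15, adjusted p = 0.00288) against miR-200a. DKC1, the pseudouridine synthase of H/ACA particles and also a host, had 897 and 542, 827 and 804, and 1376 and 1691 counts (1.11, SE 0.14, adjusted p = 0.00236). TGS1, which modifies the cap of small nuclear and some nucleolar RNAs, followed at 1.09 (SE 0.20, adjusted p = 0.00990), and NHP2, another H/ACA protein, at 1.00 (SE 0.16, adjusted p = 0.00647).

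Among 17 nonsense-mediated decay factors, 0 passed with miR-200a (median 0.01), 3 rose and 1 fell in the ELK3-labelled libraries against miR-200a (median 0.23), and 2 rose and 1 fell against the NC mimic (median 0.24). RBM8A, a protein of the exon junction complex, rose by 0.84 on the log2 scale (SE 0.14, adjusted p = 0.00647) and the exonuclease gene XRN1 fell by 0.60 (SE 0.16, adjusted p = 0.0356) against miR-200a. Among 16 regulators of mTORC1 and TOP RNAs, 0 passed with miR-200a (median 0.00), 2 rose against miR-200a (median 0.35), and 4 rose and 1 fell against the NC mimic (median 0.37). LARP1, which binds TOP RNAs at their cap, had a log2 fold change of 0.40 (SE 0.11, adjusted p = 0.0393) and EIF4E, the cap-binding protein, one of 0.56 (SE 0.15, adjusted p = 0.0394), both against miR-200a. DESeq2 and limma each called 0 of this list against miR-200a, and 1 and 4 against the NC mimic where edgeR called 5.

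The coding TOP RNAs were ribosomal protein and translation factor genes. Of 79 cytosolic ribosomal protein genes, 0 passed with miR-200a, with 64 values below 0 and a median of −0.12. In the ELK3-labelled libraries against miR-200a 4 rose, RPL6 (0.59, adjusted p = 0.0190), RPL10 (0.43, adjusted p = 0.0454), RPL5 (0.38, adjusted p = 0.0469) and RPL14 (0.36, adjusted p = 0.0474), with a median of 0.12, beside 7.03% of all tested genes that rose. DESeq2 called 1 of the 79 and limma 4, and without ELK3-labelled replicate 2 RPL6 was at 0.36 and RPL5 at 0.25. Against the NC mimic 0 passed in edgeR, DESeq2 or limma, with 5 unadjusted p-values under 0.05 and a median of 0.00. Of 17 translation factor genes with TOP RNAs, 0 passed with miR-200a, although all 17 values were below 0 (median −0.16), 1 rose against miR-200a (EEF1D, 0.72, adjusted p = 0.0420, but 0.27 without ELK3-labelled replicate 2 and 1.04 without replicate 1, median 0.26) and 1 fell against the NC mimic (NAP1L1, −0.49, adjusted p = 0.0340, median −0.04). Against miR-200a DESeq2 called 1 and limma 0 of these 17. With miR-200a against the NC mimic, the 175 tested genes of all these lists together had 0 calls in edgeR, 1 in DESeq2, 0 in limma and 12 unadjusted p-values under 0.05, beside 0.269% and 9.24% of all tested genes.

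The calls in these lists depended on the settings and on which libraries were in the model. Of the 175 tested list genes, 24 were called against miR-200a and 22 against the NC mimic. In total this was close to the 12.9% of all tested genes called in each comparison, but the directions differed. Against miR-200a all but 1 of the 24, XRN1, were higher, beside 7.03% higher and 5.91% lower of all tested genes. Against the NC mimic most of the 22 were higher, beside 6.92% and 5.95%. Each of the 24 kept its sign against miR-200a in every alternative analysis. However, 16 of them were called with upper-quartile scaling, 17 with DESeq2, 16 with limma and 12 in a model of the 2 groups alone. Of the 24, 0 were called without miR-200a replicate 1 or replicate 2, and 12 without NC mimic replicate 1 or replicate 2. Against the NC mimic 22 were called, of which 19, 18, 20 and 9 were called in the same 4 fits, but 0 without NC mimic replicate 1 or 2, and 9 without miR-200a replicate 1 or 2. Without ELK3-labelled replicate 1 or without replicate 2, all 24 and all 22 were called. DANCR, for example, kept a log2 fold change of 1.17 to 1.35 against miR-200a over the 15 alternatives, with an adjusted p of 0.0802 and 0.0814 without miR-200a replicate 1 and 2.

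**Figure D4:**
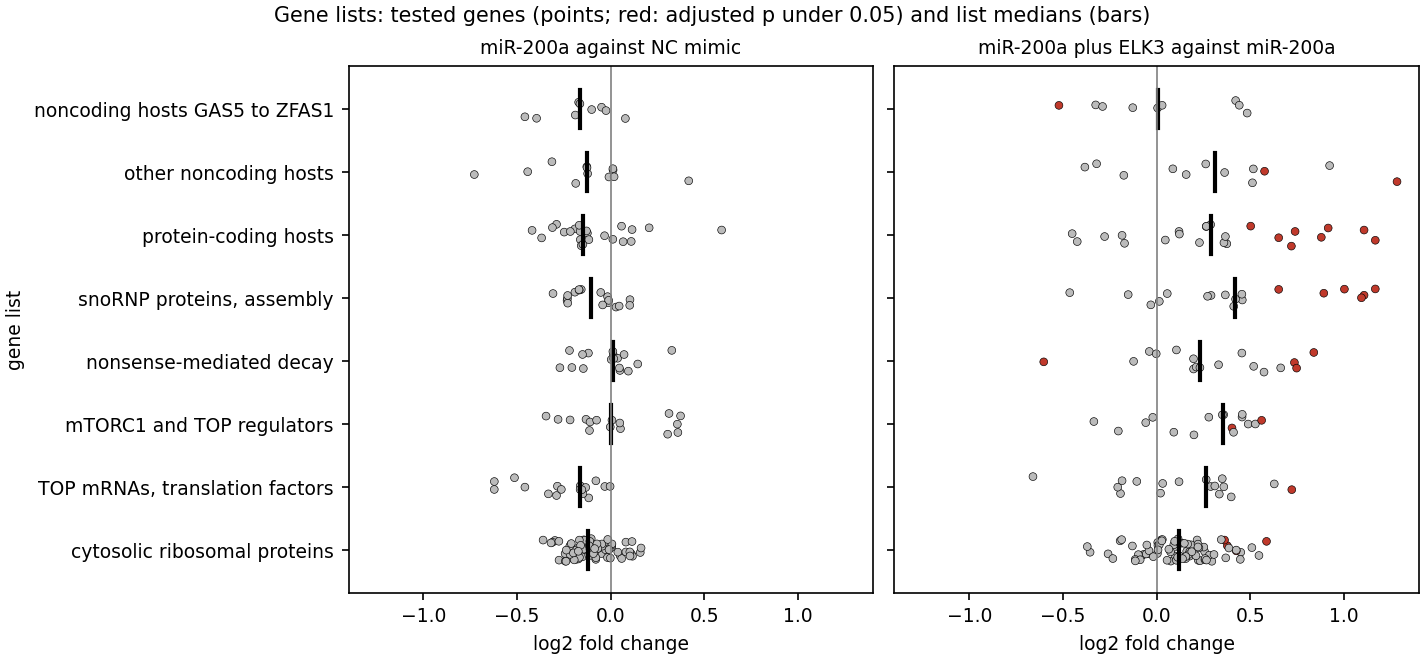
Fitted log2 fold change (horizontal axis) of the tested genes of 8 lists (vertical axis), with miR-200a against NC mimic on the left and miR-200a plus ELK3 against miR-200a on the right; points are genes, red points have an adjusted p under 0.05 and black bars are list medians. No point is red on the left, and on the right GAS5 is the 1 red point of the first list, at −0.52.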

How the data were processed

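RNA-seq libraries were made with the QuantSeq 3′ kit from MDA-MB 231 cells, 6 in all. The authors deposited 1 table per library with raw counts per gene symbol. The submitters' processing notes name Bowtie2, edgeR and the hg19 build without roles or versions, and the study names ExDEGA. The counting program, its annotation and its use of strand are not given in the sources used here. Each table has 25737 lines and 24462 symbols, and the 286 symbols on several lines were summed.

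The counts were filtered with filterByExpr (minimum count 10), scaled by TMM and tested by the quasi-likelihood method of edgeR 4.0.16 (R 4.3.3), with group as the only term and all 6 libraries in 1 model. P-values were adjusted by Benjamini-Hochberg over all 12650 tested genes, and "called" means an adjusted p under 0.05. Alternatives were upper-quartile scaling, DESeq2 size factors, no filter, at least 10 counts in each library, only the 2 compared groups, a replicate block, each library left out in turn, DESeq2 1.42.0, and quantile-normalized log2(count + 1) values in limma 3.58.1 with a mean-variance trend. A block with crossed replicate numbers was added after the data had been seen, which makes 15. Where an arm was left with 1 library, its spread was taken from the other groups. The procedure was tested on simulated data.

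The 10 genes and the lists were chosen with earlier results of these data known. Up to 4 called genes of each list are named per comparison, those with the largest absolute fold change, of which the text gives a part. GAS5-AS1, ZNFX1, SNORD26 and SNORD50A were singled out after their values were seen. Overlapping genes and transcripts came from GENCODE 29, and start windows, snoRNA positions and the miRNA from RefSeq on GRCh38.p14. Gene positions in the files' build were not used here. Counting intervals and floors cover counting error only, since no molecular identifiers are named.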

Additional observations from a re-analysis of the deposited data

How the results depend on the processing

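The number of calls among the hosts depended on the settings. For miR-200a against the NC mimic, 0 became 1 with only the 2 compared groups, and 0 to 1 when 1 library was left out, the medians then running from −0.16 to −0.058. For the ELK3-labelled libraries against miR-200a, 1 became 0 with only the 2 compared groups and 0 to 5 when 1 library was left out, with medians of −0.19 to 0.14. Against the NC mimic, 0 became 2 with upper-quartile scaling, 1 with DESeq2 size factors, 4 without the filter, 1 when each library had to hold 10 counts, 3 with limma and 0 to 4 when 1 library was left out, with medians of −0.31 to 0.046. The cause was not tested.

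Over all tested genes, the 34 calls of miR-200a against the NC mimic became 230 without the filter, 983 with only the 2 groups, 90 with DESeq2 and 0 to 1010 when 1 library was left out. The 1637 calls of the ELK3-labelled libraries against miR-200a became 2490, 542 with only the 2 groups, and 31 to 4684, and the 1629 against the NC mimic became 2525, 587 and 96 to 4675. Upper-quartile scaling gave 622 higher and 882 lower in place of 889 and 748, and 677 and 902 in place of 876 and 753. The highest counts were those without an ELK3-labelled library, whose replicates differed most.

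Same-numbered libraries showed no shared shift: their deviations correlated at −0.00299, −0.0357 and −0.108. The labels do not say whether they were handled together, and these correlations do not settle it. With the replicate block, calls over all genes were 13, 1157 and 1170, and among the hosts 0 in each comparison, since GAS5 had an adjusted p of 0.0551, and of the 24 and 22 other list genes called 15 and 16 were. With crossed pairing they were 22, 1644 and 1661, with 0, 1 and 1 hosts.

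Some values turned sign. With upper-quartile scaling, SNHG6 and SNHG8 became −0.064 and −0.039 against miR-200a in the ELK3-labelled libraries, and SNHG8 −0.055 against the NC mimic. With limma these were −0.086, −0.057 and −0.060, and SNORD50A became 0.012 against the NC mimic. SNHG6 against miR-200a also became −0.015 with DESeq2 size factors, −0.011 without the filter, −0.015 with the stricter filter and −0.011 with DESeq2, and SNHG8 against the NC mimic became −0.0054 with DESeq2 size factors, −0.0066 with the stricter filter and −9.14e-05 with DESeq2. When 1 library was left out, miR-200a against the NC mimic ran from −0.29 to 0.14 for SNHG12 and −0.12 to 0.025 for SNHG6. The ELK3-labelled libraries against miR-200a then ran from −0.19 to 0.14 for SNHG6, −0.53 to 0.15 for SNHG7, −0.039 to 0.054 for SNHG8 and −0.069 to 0.78 for SNHG15, and against the NC mimic from −0.22 to 0.11 for SNHG6, −0.049 to 0.046 for SNHG8, −0.52 to 0.34 for SNHG15, −0.86 to 0.46 for SNORD26 and −0.079 to 0.43 for ZNFX1. Of all single-gene values over the alternatives, 922 kept direction and call, 41 gained a call, 207 lost one and 29 turned sign.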

Other observations

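The mean level of the 9 tested hosts, each centred on its own mean of log2 CPM, was 0.14 and 0.073, −0.062 and −0.040, and 0.091 and −0.20 in the NC mimic, miR-200a and ELK3-labelled libraries. The lowest and one of the higher values belonged to the same group. Across the 6 libraries, which share their groups, the 5 genes of 5764 whose level followed this mean most closely were EXOC5 (Pearson's r 0.996), ING3 (0.993), RPS15A (0.983), IER3IP1 (0.981) and MTA1 (0.981). RPS15A is a ribosomal protein gene. These correlations over 6 libraries are descriptions and were not tested. SNHG1 lies 188 bases from SLC3A2, an amino acid transporter subunit read from the other strand, whose counts were 457 and 315, 522 and 535, and 571 and 606.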
